A study of Mus musculus with 8 samples.

Results

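The complement genes C1qa, C1qb, C1qc, C1ra, C1s1, C4b, C3, C3ar1 and C5ar1 were examined in the left ventricle of mice infused with angiotensin II (ANG II). They were taken by symbol from the deposited expression table, which held all 9 of them among 55679 genes. Complement is a cascade of secreted proteins that marks particles, dying cells and immune complexes for removal. In the classical pathway, C1q binds its target, the proteases C1r and C1s bound to it are activated, C4 and C2 are cleaved, and the enzyme they form cleaves C3. The fragments C3a and C5a released along the cascade act on receptors of myeloid cells. In the heart, C1q is made mainly by macrophages, whereas the C1 proteases, C4 and C3 are also made by fibroblasts and other stromal cells.

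The study asked which immune-related genes accompany hypertensive left ventricular hypertrophy. The 8 libraries, 4 control and 4 ANG II, came from male wild-type C57BL/6J mice. Osmotic mini-pumps under the skin delivered saline to the control group and 1500 ng/kg/min ANG II, a dose that raises blood pressure, to the ANG II group, in both cases for 7 days. The hearts were flushed with saline before collection, and poly(A) RNA of the ventricle was sequenced. The ages of the mice are not given in the sources used here. The study calls its sequenced samples biological replicates. The labels do not say whether each numbered ventricle came from a separate animal, so the p-values measure the spread between these libraries.

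Levels are given as FPKM, the fragments of a gene scaled by transcript length and by the total mapped in its library. The libraries held 14455654 to 16564828 mapped fragments, as read from the steps of the FPKM values. Fragments of mitochondrially encoded genes made up 26.3% to 27.0% of the control libraries and 19.2% to 21.8% of the ANG II libraries, a difference that enters every FPKM value through its denominator. The extraction text of the labels names another cell source than the ventricle, and the study describes more mice per group than the libraries analysed here. The 8 cardiomyocyte markers examined were present at a summed level of 24400 to 34658 FPKM. Control replicate 1 held the highest control level of all 9 complement genes, and ANG II replicate 3 held the highest ANG II level of 8 of them, all but C5ar1. Changes were tested with limma on log2(FPKM + 1) over 19364 genes, and a call required both a Benjamini-Hochberg adjusted p-value below 0.05 and a log2 fold change beyond 0.5 in either direction.

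All 9 complement genes were higher after ANG II infusion, and each was called. The background was broad, because 14.0% of all genes tested were called higher and 1.41% were called lower. In each of the 9 genes the lowest ANG II library lay above the highest control library, a separation that 28.7% of all genes tested showed. All 9 were also called when libraries were scaled by the median of ratios or by quantiles, where the share of genes called higher was 8.62% and 7.30%. All 9 log2 fold changes exceeded 1, which 3.96% of the genes tested did with an adjusted p-value under 0.05. Their median log2 fold change was 1.43, against 0.15 for all genes tested. In whole tissue, more cells of a type and more RNA per cell cannot be told apart.

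**Figure D1:**
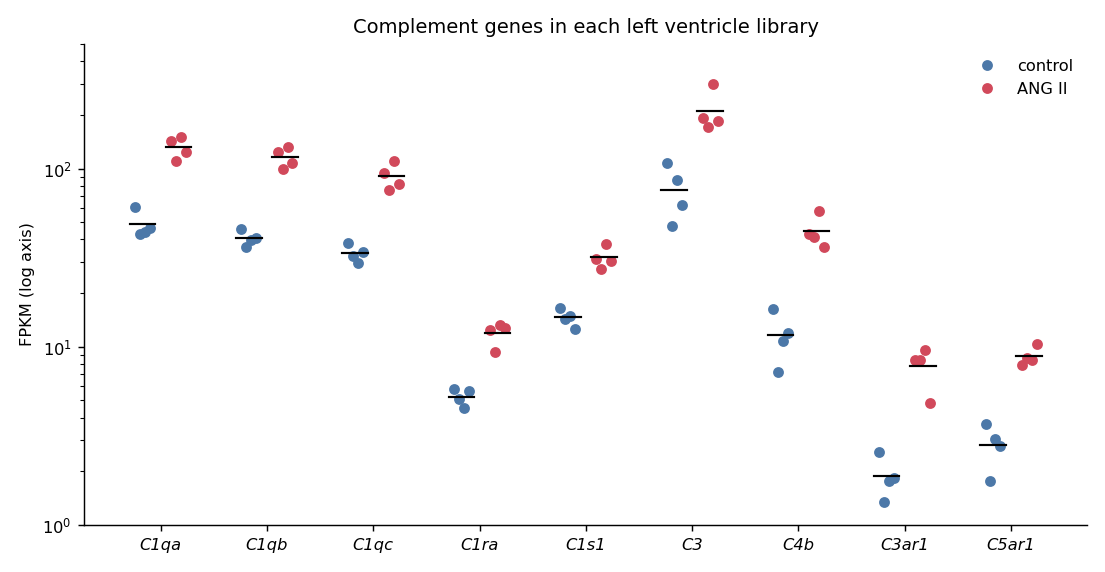
FPKM (log axis) of the 9 complement genes in each library. Each point is 1 library (4 control in blue, 4 ANG II in red) and each bar is the group mean. For every gene the 4 ANG II points sit above the 4 control points, and C3 has the highest and C3ar1 the lowest mean in both groups.

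C1qa, C1qb and C1qc encode the A, B and C chains of C1q, the recognition molecule of the classical pathway. The genes lie side by side on the minus strand of chromosome 4 within 18675 bases (GRCm38), C1qb at chr4:136880129-136886187, C1qc at chr4:136889804-136893065 and C1qa at chr4:136895917-136898803. All are protein-coding genes of at most 3 exons in GENCODE M21. No 50-base stretch of their transcripts was shared with another gene. Since the chains changed together, the sequence before the transcription start is shown for C1qb and C1qc, the chains that the RefSeq promoter table (GRCm38.p6) held. The 250 bases before each RefSeq start were searched on both strands for GAGGAA, the core bound by the myeloid factor PU.1, which reads TTCCTC on the other strand. Matches are in capitals below, and the C1qc sequence ends at base 99 of the window, where the annotated gene begins. Both are printed 5′ to 3′ along the gene's strand.

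C1qb, chr4:136886201-136886450, minus strand: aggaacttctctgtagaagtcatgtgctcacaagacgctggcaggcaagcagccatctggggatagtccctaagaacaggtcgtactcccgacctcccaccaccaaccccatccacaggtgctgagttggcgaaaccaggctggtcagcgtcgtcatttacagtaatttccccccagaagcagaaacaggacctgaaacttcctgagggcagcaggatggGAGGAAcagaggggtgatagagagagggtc

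C1qc, chr4:136893066-136893164, minus strand: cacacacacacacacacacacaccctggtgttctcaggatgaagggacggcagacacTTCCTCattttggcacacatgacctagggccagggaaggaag

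Each window held 1 match, which began 30 bases before the RefSeq start of C1qb and 193 bases before that of C1qc. Of all 27025 RefSeq windows of this length, 23.1% held at least 1 such match, so the motif is common. Of the 9 complement genes, 7 had a window, and C1qb and C1qc were the 2 with a match. The windows of C1ra and C5ar1 lay mostly inside the annotated gene, by 216 and 202 bases. Only 34 and 48 bases of them lay before the gene. The AP-1 motif TGANTCA was found before C3ar1 alone, against 6.87% of all windows. TTCNNNGAA, the motif of STAT factors, stood in 7.18% of all windows and in none of the 7. The motifs were compared as letters only and may overlap one another.

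C1qa stood at 60.7, 43.1, 44.1 and 46.4 FPKM in control replicates 1 to 4 and at 143, 111, 150 and 124 FPKM in ANG II replicates 1 to 4. C1qb stood at 45.6, 36.2, 39.7 and 40.7 FPKM in control and at 124, 99.2, 132 and 107 FPKM in ANG II. C1qc stood at 38.2, 32.5, 29.7 and 34.1 FPKM in control and at 94.1, 76.2, 110 and 81.8 FPKM in ANG II. The groups were apart for each chain, with control replicate 1 the highest control and ANG II replicate 2 the lowest ANG II library for all of the chains. The group means of C1qa were 48.6 ± 8.23 and 132 ± 18.0 FPKM (SD, n = 4 each), those of C1qb 40.5 ± 3.88 and 116 ± 14.9, and those of C1qc 33.6 ± 3.58 and 90.5 ± 15.1. The ratios of the means were 2.72, 2.85 and 2.69 in that order. The log2 fold changes were 1.43 (SE 0.12), 1.48 (SE 0.10) and 1.39 (SE 0.12), with limma adjusted p-values of 4.08e-05, 9.05e-06 and 3.09e-05. These values rested on 510 to 913 fragments per control library and 1305 to 2359 per ANG II library.

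Differences in the proportions of the chains lay within the spread between libraries. The within-library log2 ratio of C1qa to C1qb was 0.25 ± 0.12 in the control group against 0.19 ± 0.02 after infusion (SD, n = 4 each), a difference of -0.06 (exact permutation p = 0.429). That of C1qa to C1qc differed by 0.03 (exact permutation p = 0.714) and that of C1qb to C1qc by 0.09 (exact permutation p = 0.314). The order C1qa, C1qb, C1qc held in all 8 libraries, although the FPKM ranges of neighbouring chains overlapped in both groups. Within the groups the chains also deviated together, with correlations of 0.89 to 0.94 between their deviations from the group means over 8 libraries. The chains come from the same libraries, so this is a description only.

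C1ra and C1s1 encode C1r and C1s, the serine proteases that C1q carries. They lie next to each other on chromosome 6, C1ra at chr6:124512405-124523443 on the plus strand and C1s1 at chr6:124530345-124542359 on the minus strand, with 6901 bases between them. C1ra stood at 5.76, 5.10, 4.54 and 5.61 FPKM in control replicates 1 to 4 and at 12.4, 9.34, 13.2 and 12.8 FPKM in ANG II replicates 1 to 4. C1s1 stood at 16.6, 14.3, 14.9 and 12.5 FPKM in control and at 31.2, 27.2, 37.9 and 30.4 FPKM in ANG II. Both were apart between the groups, and both had the lowest log2 fold changes of the 9 genes. The log2 fold change was 1.04 for C1ra (SE 0.12, limma adjusted p = 0.000151) and 1.06 for C1s1 (SE 0.11, limma adjusted p = 9.38e-05). The ANG II means were 2.27 and 2.17 times those of control. Both genes fell under a log2 fold change of 1, but kept their call, when libraries were scaled by the median of ratios (0.84 and 0.85), by quantiles (0.76 and 0.84) or without the mitochondrially encoded genes (0.94 and 0.95). The ratio of C1s1 to C1ra within a library differed by -0.05 on the log2 scale between the groups (exact permutation p = 0.714).

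The mouse genome carries near copies of both proteases, which makes their assignment uncertain. Of the 50-base stretches of C1ra transcripts, 50.8% also occur in other genes, mostly C1rb, and of those of C1s1 35.1%, mostly in C1s2. C1rb was listed at 0 in all 8 libraries. C1s2 had 0 to 1 fragments per control library and 2 to 6 per ANG II library. In addition, 18.4% of the exon sequence of C1s1 overlaps Gm16567 of the other strand, and whether counting was stranded is not given in the sources used here.

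C4b encodes complement C4, whose cleaved fragment attaches to targets and helps form the enzyme that cleaves C3. It lies on chromosome 17 at chr17:34728380-34743882 on the minus strand. C4b stood at 16.4, 7.19, 10.8 and 12.01 FPKM in control replicates 1 to 4 and at 43.2, 41.4, 58.0 and 36.2 FPKM in ANG II replicates 1 to 4. The lowest ANG II library was 2.21 times the highest control library. The log2 fold change was 1.89 (SE 0.21, limma adjusted p = 0.000162), rank 124 of all genes tested. Of its 50-base stretches 34.6% are shared, mostly with C4a. This copy, which shares 30.6% of its 50-base stretches with other genes, mostly C4b, had 1 to 7 fragments per control library and 3 to 16 per ANG II library, and it was not called (log2 fold change 0.11, SE 0.11, limma adjusted p = 0.494).

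C3 encodes the central component, on which the classical, lectin and alternative pathways converge. It lies at chr17:57203970-57228136 on the minus strand of chromosome 17. C3 stood at 108, 47.8, 86.5 and 62.2 FPKM in control replicates 1 to 4 and at 192, 170, 298 and 185 FPKM in ANG II replicates 1 to 4. It was the most variable of the 9 genes in both groups, with a coefficient of variation of 34.9% in control and 27.7% in ANG II, and ANG II replicate 3 stood apart from the others of its group. The log2 fold change was 1.49 (SE 0.25, 95% interval 0.94 to 2.05, limma adjusted p = 0.00142), and without ANG II replicate 3 it was 1.31. Its fold change was smaller than that of C4b. Their within-library log2 ratio was 2.69 ± 0.26 in the control group against 2.22 ± 0.16 after infusion (SD, n = 4 each), a difference of -0.47 with no overlap between the groups. The exact permutation p of this ratio was 0.0286, the smallest that 4 against 4 libraries allow, and 0.229 after adjustment over the 8 ratios compared, so the difference between C3 and C4b was not called.

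C3ar1 and C5ar1 encode the receptors of C3a and C5a, G protein-coupled receptors of macrophages, monocytes and neutrophils. C3ar1 lies at chr6:122847138-122856161 and C5ar1 at chr7:16246743-16259540, both on the minus strand. C3ar1 stood at 2.56, 1.35, 1.77 and 1.84 FPKM in control replicates 1 to 4 and at 8.47, 8.42, 9.59 and 4.83 FPKM in ANG II replicates 1 to 4. C5ar1 stood at 3.68, 1.77, 3.05 and 2.76 FPKM in control and at 7.92, 8.69, 8.47 and 10.3 FPKM in ANG II. Both were apart between the groups, but ANG II replicate 4 held the lowest ANG II level of C3ar1 and the highest of C5ar1. The means of C3ar1 differed 4.17-fold and those of C5ar1 3.14-fold. The log2 fold changes were 1.60 for C3ar1 (SE 0.20, limma adjusted p = 0.00025) and 1.39 for C5ar1 (SE 0.16, limma adjusted p = 0.00016). At these low levels the 1 FPKM that was added understates the change. With 0.1 FPKM added the values were 1.99 and 1.66, and limma-voom on the recovered fragments, 85 to 159 per control library for C3ar1 and 49 to 101 for C5ar1, gave 2.04 and 1.69.

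C5ar1 exceeded C3ar1 in all 4 control libraries and in 2 of 4 ANG II libraries. The log2 ratio of C3ar1 to C5ar1 was -0.55 ± 0.16 in the control group against -0.21 ± 0.59 after infusion (SD of 4 libraries, exact permutation p = 0.343), a difference of 0.33 that became 0.62 without ANG II replicate 4, 0.20 without ANG II replicate 3 and 0.21 with 1 FPKM added. The log2 ratio of C3ar1 to C3, receptor to precursor of its ligand, differed by 0.49 (exact permutation p = 0.114, adjusted 0.305), and by 0.11 with 1 FPKM added. That of C1qa to C1ra differed by 0.28 (exact permutation p = 0.0571, adjusted 0.229). No ratio of the 8 passed 0.05 by the exact permutation test after adjustment, and 1 did so unadjusted. With 8 ratios, 5 at the smallest possible p would have been needed for a call.

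**Figure D2:**
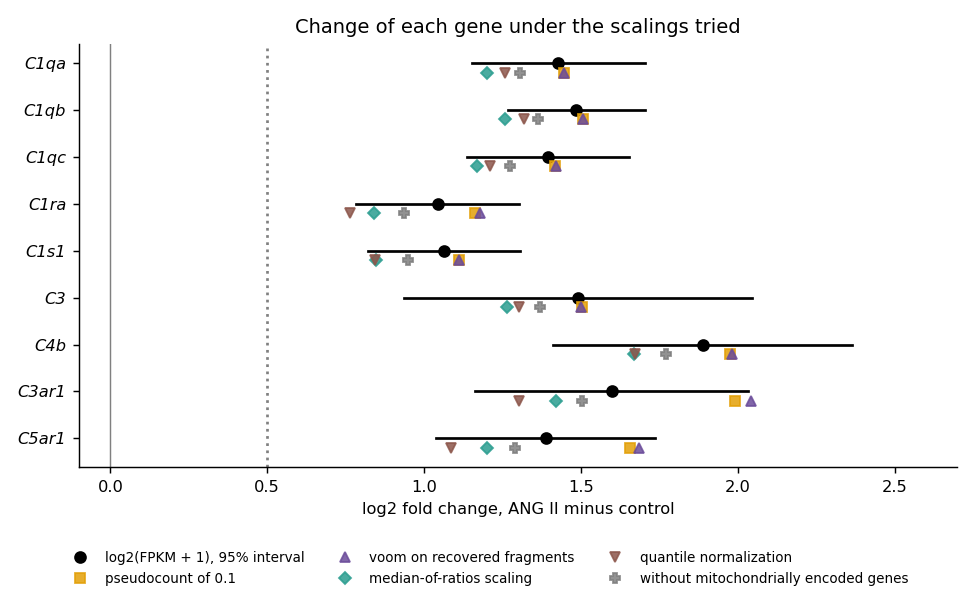
Log2 fold change (ANG II minus control) of each gene. The black point and line give limma on log2(FPKM + 1) with its 95% interval, the coloured marks give the same change under other scalings, and the dotted line is the threshold of 0.5. All values lie to the right of 0.5, from 0.76 for C1ra under quantile normalization to 2.04 for C3ar1 with limma-voom.

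The order of levels was nearly the same in both groups. In control it ran C3, C1qa, C1qb, C1qc, C1s1, C4b, C1ra, C5ar1 and C3ar1, from a mean of 76.1 down to 1.88 FPKM, and in ANG II from 211 down to 7.83 FPKM with C4b above C1s1. Neighbours whose library ranges did not overlap in control were C1qc and C1s1, C4b and C1ra, and C1ra and C5ar1. In ANG II they were C3 and C1qa, C1qc and C4b, and C1s1 and C1ra. The place of C3 in both groups, of C4b in control and of C5ar1 and C3ar1 in ANG II depended on the transcript length used. The deposited FPKM values were scaled by the mean length of the annotated transcripts, 1667 bases for C3 against 5136 for its longest transcript. Scaled to the longest transcript, a choice made after the data were seen, the means of C3 were 24.7 and 68.5 FPKM in control and ANG II, under those of C1qa at 48.6 and 132. Those of C4b were 4.95 and 19.1, in control under C1ra at 5.25. In ANG II, C5ar1 at 6.61 then stood under C3ar1 at 7.83. Such scaling leaves the ratio of each gene's group means as it was. It would alter the log2 fold changes, which have 1 FPKM added, and this was not tested.

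Macrophage markers were examined beside the complement genes. For the counts of markers here and below, the shares over all genes tested were 14.0% called higher and 1.41% called lower. Of 11 macrophage markers, 9 were called higher and none lower, and their summed level was 95.2 to 112 FPKM in control against 201 to 265 after infusion, a ratio of the means of 2.27 (exact permutation p = 0.0286, the smallest possible). Csf1r, the receptor for macrophage growth factor, rose in log2 terms by 1.18 (SE 0.08) at an adjusted p of 1.20e-05 in limma. Lyve1, a marker of resident macrophages, was not called, at 16.4 ± 2.29 FPKM in control and 16.97 ± 2.23 in ANG II (log2 fold change 0.05, SE 0.11, limma adjusted p = 0.791). Its sign turned negative under 3 other scalings. Cd163, the other uncalled marker, was named after its values were seen, at a log2 difference of 0.43 (SE 0.11, limma adjusted p = 0.0154), and it was called without ANG II replicate 4 (0.52) and lay at 0.18 to 0.31 under 3 other scalings.

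Each complement gene was therefore also set against the summed macrophage markers of its own library, with 0.1 FPKM added to each, a ratio in which a single factor per library largely cancels. The log2 ratio of C1qa was -1.05 ± 0.13 in the control group against -0.78 ± 0.07 after infusion (SD, n = 4 each), a difference of 0.27. C1qb differed by 0.33, C1qc by 0.24 and C4b by 0.80. For these 4 genes the groups did not overlap. C3ar1 differed by 0.82, C5ar1 by 0.48 and C3 by 0.33, with overlap. C1ra differed by -0.01 and C1s1 by -0.07. These sizes depended on how the markers were combined. With the mean of the log2 levels over the 11 markers in place of their sum, so that each marker weighs alike, C1qa differed by 0.10, C1qb by 0.16, C1qc by 0.07, C3 by 0.16, C4b by 0.63, C3ar1 by 0.65, C5ar1 by 0.31, C1ra by -0.18 and C1s1 by -0.23. With 1 FPKM added, C3ar1 differed by 0.43, C5ar1 by 0.22 and C1ra by -0.13. Without control replicate 2, C3 differed by 0.14 and C5ar1 by 0.29. No gene passed 0.05 in the exact permutation test after adjustment over the 9 genes, where 6 would have had to reach the smallest possible p. The 4 genes without overlap had p = 0.0286 unadjusted and 0.0643 adjusted in this exact test.

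**Figure D3:**
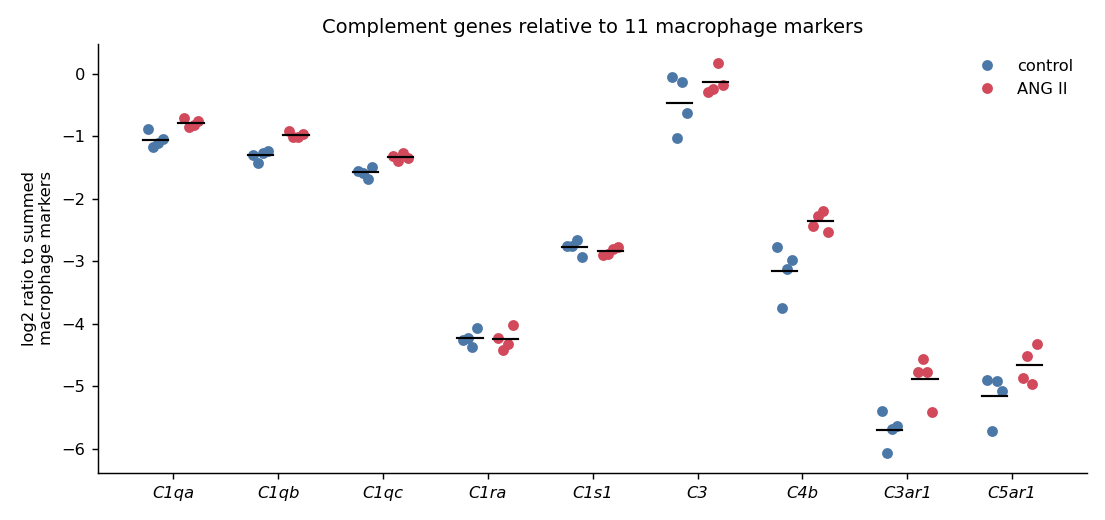
Log2 ratio of each complement gene to the summed FPKM of 11 macrophage markers in the same library (0.1 FPKM added to each). Points are libraries (4 control in blue, 4 ANG II in red) and bars are group means. The mean of C4b was -3.16 in control and -2.36 in ANG II, and that of C1ra -4.23 and -4.24. With the mean of the log2 marker levels in place of the sum, C1ra differed by -0.18 between the groups.

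Other cell types differed between the groups as well, and their part in the complement result was not tested. Of 8 fibroblast markers 6 were called higher, among them Dcn and, from 67.2 to 588 FPKM, Col1a2. Gsn, the most abundant of them, averaged 819 FPKM in control against 587 after infusion, just short of the fold threshold (log2 fold change -0.50, SE 0.15, limma adjusted p = 0.028), and it was called lower under 3 other scalings and without ANG II replicate 3, ANG II replicate 4 or control replicate 3 (-0.73 to -0.54). The fibroblast list summed to 1048 to 1390 FPKM in control and 1675 to 1981 in ANG II. Of 7 endothelial markers 1 was called higher, and of 8 cardiomyocyte markers 2 were called lower, among them Myh6, whose call was lost under quantile normalization, with sums of 33722 to 34658 in control and 24400 to 26487 in ANG II. Of 8 neutrophil markers 4 were called higher, among them Csf3r, at sums of 2.60 to 6.85 and 8.91 to 22.6 FPKM, while Ly6g and Ngp were too low to be tested. All 5 erythroid markers were called higher, with Hbb-bs, a beta-globin gene, at 144 ± 120 FPKM in control against 844 ± 422 after infusion, and with sums of 96.8 to 487 and 581 to 2083 FPKM. Of 3 atrial markers 1 was called higher, and the sums were 1.15 to 48.8 and 52.5 to 230 FPKM. None of the 5 adipocyte markers tested and none of 6 mesothelial markers was called by limma. Control replicate 1, the control with the highest complement levels, was also the highest control for the macrophage, erythroid, neutrophil, endothelial, cardiomyocyte, adipocyte and atrial sums. ANG II replicate 3 was the highest ANG II library for the macrophage, fibroblast, cardiomyocyte, adipocyte and atrial sums. The log2 fold changes of the 9 genes were 1.08 to 2.06 without control replicate 1 and 0.98 to 1.76 without ANG II replicate 3.

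The genes most like C1q were sought among 9027 genes averaging 5 FPKM or more, by Pearson correlation over the 8 libraries with the mean profile of the C1q chains. The highest values were 0.998 for Cd53, a tetraspanin of leukocytes, 0.998 for Gng2, a G protein subunit, 0.997 for Arpc3, a subunit of the actin-nucleating Arp2/3 complex, 0.995 for Serping1 and 0.995 for Pirb, an inhibitory receptor of myeloid cells. These correlations include the difference between the groups, which raises them, and 29 of the 9027 genes exceeded 0.99. Cd53 went from 4.04 to 14.1 FPKM and Serping1 from 62.7 to 140 FPKM.

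The rest of the pathway was read from a list of 43 other complement genes, of which 31 were high enough to be tested. Of these 13 were called higher and none lower, against 14.0% and 1.41% of all genes tested. Their median log2 fold change was 0.36, which was the value of Hc. Hc averaged 0.020 FPKM in control and 0.33 in ANG II. Like Cfi, it passed the filter of 0.1 FPKM through the ANG II group alone, so the median depends on that choice. Masp2, at 0.21 FPKM in control and 0.056 in ANG II, passed through the control group alone. C1rb, Mbl1, Mbl2, Fcnb, C8a, C8b, C9, C4bp and Cd55b were listed at 0 in all 8 libraries, and C1s2, Colec10 and Cfb were below the filter. Several of these are made mainly in the liver.

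Among recognition molecules and proteases, 2 of 8 tested were called, against 14.0% called higher over all genes tested. Masp1, a protease of the lectin pathway, stood at 3.45 ± 1.25 FPKM in control and 8.20 ± 2.02 in ANG II (log2 fold change 1.06, SE 0.21, limma adjusted p = 0.00355). Colec12, a scavenger receptor of the collectin family, stood at 7.27 ± 0.79 and 15.3 ± 0.79 FPKM (log2 fold change 0.99, SE 0.08, limma adjusted p = 3.86e-05). Colec11, the soluble collectin CL-K1, was at 13.9 ± 1.28 and 16.4 ± 2.49 FPKM and Fcna, a ficolin, at 0.72 ± 0.34 and 1.47 ± 0.57, and neither was called, although Fcna was called without ANG II replicate 4 (0.68), and lay at 0.30 to 0.45 under 3 other scalings. C1rl, a relative of C1r, was at 0.43 ± 0.09 and 0.56 ± 0.10 FPKM and was not called.

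In the alternative pathway, Cfp, which encodes properdin, the stabilizer of the C3-cleaving enzyme, rose from 10.0 ± 1.48 to 15.3 ± 1.87 FPKM (log2 fold change 0.57, SE 0.12, limma adjusted p = 0.00472). Its call was lost under 3 other scalings (0.32 to 0.45) and without control replicate 2 (0.47). Cfd, which encodes factor D, an adipocyte product, ranged from 0.34 to 4.78 FPKM in control and from 0.77 to 9.95 in ANG II and was not called. In the terminal pathway, 1 of 4 tested genes was called, against 14.0% called higher over all genes tested. C6 was detected by 0 to 14 fragments per control library and 14 to 42 per ANG II library (log2 fold change 0.66, SE 0.18, limma adjusted p = 0.02). In FPKM its groups overlapped, at 0 to 0.50 in control and 0.45 to 1.43 in ANG II. Its call was lost under quantile normalization and without control replicate 2, control replicate 4 or ANG II replicate 1 (0.53 to 0.63). C7, at 6.80 ± 1.28 and 5.57 ± 2.08 FPKM, C8g and Hc, the gene of C5, were not called. Hc had 2 fragments in 1 control library and 6 to 15 fragments in 3 of 4 ANG II libraries.

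Among regulators, 4 of 10 tested were called, against 14.0% called higher over all genes tested. Of the called regulators, Clu, Serping1 and Cfi are described here. Cfi passed the filter on low values through the ANG II group alone, so its call and its place in these counts and in the 13 of 31 follow from the group where it was detected. Clu encodes clusterin, a chaperone that binds the terminal complex, and its log2 fold change was above those of the 9 genes described first. It stood at 483, 461, 560 and 567 FPKM in control replicates 1 to 4 and at 2705, 2808, 1909 and 2961 FPKM in ANG II replicates 1 to 4, a log2 fold change equal to 2.31 (SE 0.14, limma adjusted p = 5.06e-06). ANG II replicate 3, where C3 and C4b were highest, had the lowest ANG II level of Clu. Serping1, the gene of the C1 inhibitor that removes C1r and C1s from C1q, rose from 62.7 ± 4.59 to 140 ± 9.0 FPKM (log2 fold change 1.15, SE 0.07, limma adjusted p = 4.70e-06). Cfi, the gene of the protease factor I, was listed at 0 in all 4 control libraries and had 12 to 27 fragments in the ANG II libraries. Against a floor of 3 fragments per control library its mean was at least 5.64-fold higher.

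Other regulators were not called. Cr1l, which encodes Crry, the main membrane regulator of C3 in mice, stood at 43.2 ± 1.57 and 43.6 ± 1.36 FPKM (log2 fold change 0.01, 95% interval -0.09 to 0.12), and its value turned to -0.11 to -0.21 under 3 other scalings. Cd59a, which blocks the terminal complex, stood at 52.4 ± 1.87 and 44.7 ± 3.77 FPKM (log2 fold change -0.23, SE 0.06, limma adjusted p = 0.0196), under the fold threshold, and at -0.45 to -0.35 under 3 other scalings. Vtn, which encodes the secreted protein vitronectin, was at 27.7 ± 2.90 and 23.0 ± 2.87 FPKM (log2 fold change -0.26, limma adjusted p = 0.0699) and was not called. Under the 3 other scalings Vtn was at -0.49 to -0.38, with adjusted p-values of 0.0031 to 0.0201 in limma, still under the fold threshold. Whether regulators changed differently from activating components was not tested.

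Among other receptors, 5 of 7 tested were called, against 14.0% called higher over all genes tested. Itgam, Itgax and Itgb2 encode the chains of complement receptors CR3 and CR4, and their log2 fold changes were 0.81 (SE 0.10), 1.49 (SE 0.21) and 1.31 (SE 0.18). Itgam shares 66.3% of its 50-base stretches with other genes, mostly Gm49368, so its level is uncertain. Vsig4, the receptor CRIg of tissue macrophages, rose from 1.28 ± 0.39 to 3.37 ± 1.11 FPKM (log2 fold change 0.91, SE 0.20, limma adjusted p = 0.00669), a call that quantile normalization removed (0.62). Cd93, a glycoprotein once described as a C1q receptor, rose from 25.1 ± 1.34 to 36.1 ± 0.93 FPKM (log2 fold change 0.51, SE 0.05, limma adjusted p = 0.000114), and it fell under the fold threshold with 3 other scalings (0.29 to 0.39) and without ANG II replicate 3 or control replicate 4 (0.50 and 0.48). C5ar2, the second C5a receptor, at 0.73 ± 0.10 and 1.16 ± 0.34 FPKM, and Cr2 were not called.

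**Figure D4:**
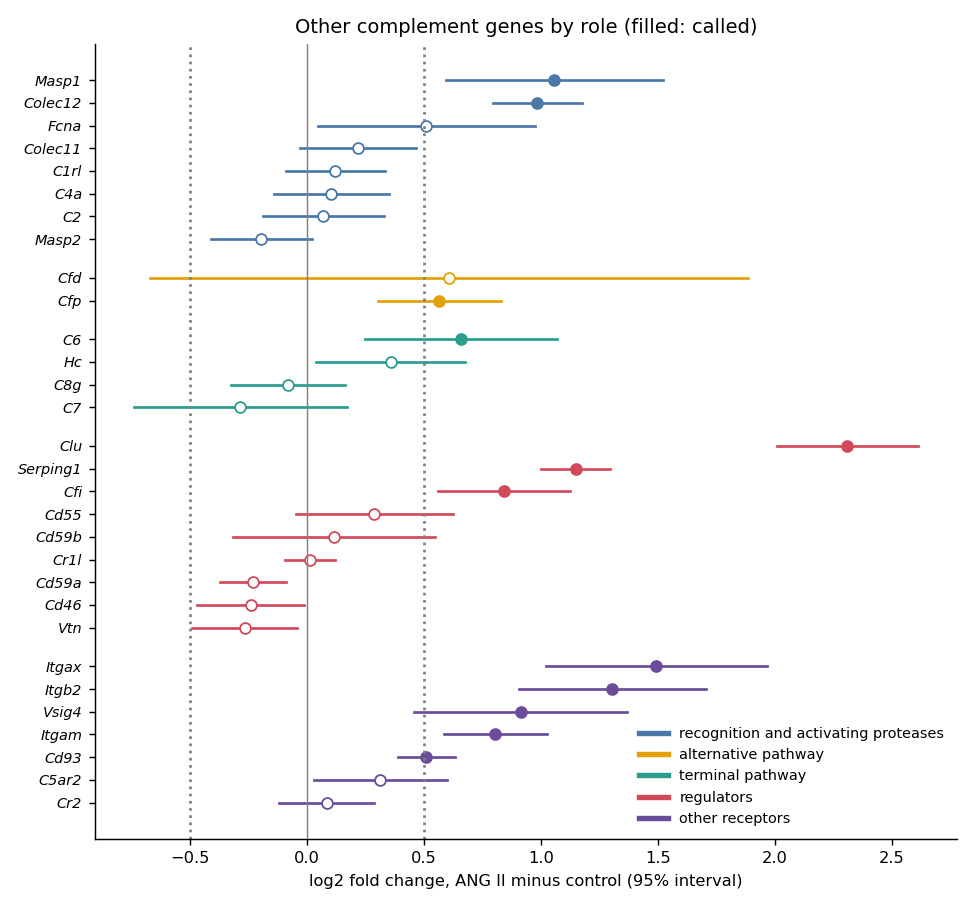
Log2 fold change (ANG II minus control) with the 95% interval of limma for 30 of the 31 other complement genes tested, in the colour of their role. Filled points were called, open points were not, and the dotted lines mark the fold threshold of 0.5. Clu lies farthest to the right at 2.31, and Cfd has the widest interval.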

How the data were processed

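Poly(A) RNA-seq libraries of mouse left ventricle, 4 control and 4 ANG II, were analysed. The authors deposited 1 table of FPKM values with 1 column per library. The submitters' processing notes name HISAT, Bowtie2 and RSEM. Their versions, the genome build, the annotation and the use of strand are not given in the sources used here. Positions and lengths came from GENCODE M21 (GRCm38), and 55141 of 55679 gene IDs matched. Fragments were recovered from the FPKM steps (97.6% to 99.3% of low values whole within 0.05). Groups were taken from sample titles.

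Genes averaging 0.1 FPKM or more entered limma 3.58.1 in R 4.3.3 (eBayes with trend) on log2(FPKM + 1), with no block, and p-values were adjusted over all genes tested. Fold changes are on that scale and understate those of low genes. The study names limma and both thresholds, whereas the pseudocount, the filter and base 2 are choices made here. Ratios were compared by exact two-sided permutation over 70 allocations, with 0.1 FPKM added. The scripts were tested on simulated data. The 9 genes, the lists and the ratios were chosen with earlier results of these data known. Named were all 9 genes, the called genes and the 3 highest uncalled genes per role of the list, up to 4 markers per cell type and the 5 genes most like C1q. Genes outside this rule are given as values. The values of 1 called regulator are not reported here, although the counts include it. Same-numbered libraries did not deviate together (correlations of -0.03 to 0.06), so the numbers were not taken as pairs. The alternatives were other pseudocounts, filters, scalings and thresholds, a fit without trend, a replicate block, the omission of each library and, added after the data were seen, limma-voom on recovered fragments. Floors cover counting error only.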

Additional observations from a re-analysis of the deposited data

Results flagged for a closer look

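The highest or lowest library of a group was compared with the other libraries of its group in 85 groups of 4, where chance alone marks about 1 in 20. In C3, ANG II replicate 3 stood far above the others at 298 FPKM, only just past the critical value. In Cd59a, ANG II replicate 3 stood above the others at 50.3 FPKM. Hc had its only control signal in replicate 4, at 0.0814 FPKM, which is 2 fragments. With every other control library at 0, any signal there would have been marked. Control replicate 1 stood high for the summed macrophage markers at 112 FPKM, the summed erythroid markers at 487 FPKM and the summed cardiomyocyte markers at 34658 FPKM. The summed fibroblast markers were low in control replicate 3 at 1048 FPKM and in ANG II replicate 2 at 1675 FPKM. The causes were not tested.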

How the results depend on the processing

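All 9 complement genes kept their direction and call under each of the 17 alternatives to the fit, with adjusted p-values up to 0.00565, and 9 were called in each fit that left out 1 library. Relative to the median of all genes, their log2 fold changes were 0.90 to 1.74, and 0.84 to 1.67, 0.81 to 1.72 and 0.87 to 1.70 under median-of-ratios scaling, quantile normalization and scaling without mitochondrially encoded genes. The median of all genes, 0.15 in the reported fit, was 0.00, -0.04 and 0.07 there. Over all genes, calls were 2708 higher and 273 lower, against 1670 and 804, 1413 and 986, and 2083 and 466 in the same order, 767 and 28 above a log2 fold change of 1, and 5496 and 951 by adjusted p-value alone. Thus 90.84% of calls were higher in the reported fit, against 67.5%, 58.9% and 81.72%. Of the other complement genes 13 were called, 5 above a log2 fold change of 1, and 11 to 14 with 1 library left out. Cr1l reversed to -0.21, -0.15 and -0.11 and Lyve1 to -0.17, -0.19 and -0.070 under the 3 scalings, and the value of Lyve1 was -0.037 to 0.11 with 1 library left out. Under quantile normalization Colec11 reversed to -0.021 and C1rl to -0.020. The ratio of C1s1 to C1ra reversed to 0.021 with 1 FPKM added, and ran from -0.16 without control replicate 4 to 0.027 without control replicate 3. That of C1qa to C1qc reversed to -0.012 without control replicate 2. The cause was not tested. With the replicate block 9 complement genes and 13 of the others were called, and 2700 genes higher and 268 lower over all, with no pairing seen in the numbers. Depth limited C6, Cfi, Hc and C4a, which rest on few fragments.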
